A study of Mus musculus with 3 samples.

Results

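Single-nucleus RNA-seq of whole mouse corneas was searched for barcodes rich in C1qtnf7, Pde7b, Chsy3 and 7 further genes, and 2966 of the 317975 deposited barcodes qualified. A barcode is the tag that marks the RNA of 1 droplet, and a UMI is 1 counted RNA molecule. Members were barcodes with at least 500 genes and at most 5% mitochondrial UMIs that held a UMI of at least 4 of the 10 genes C1qtnf7, Pde7b, Chsy3, Erbb4, Lrrc7, Csmd1, Spon1, Slit3, Zeb2 and Cped1. The 10 genes together also had to take a share of the barcode's UMIs at least 4 times their share in the whole library. By this rule 956 barcodes were members in the library labelled WT, 1045 in the library labelled KO and 965 in the library labelled KO+PBS. These were 0.990% (exact binomial 95% interval, 0.929 to 1.05%), 0.976% (0.918 to 1.04%) and 0.862% (0.809 to 0.918%) of the barcodes that passed the gene and mitochondrial limits.

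The 3 groups were WT corneas, corneas lacking Aire with no treatment, and Aire KO corneas treated with PBS over 14 days. Mice without Aire develop an autoimmune dry eye and serve as a model of that disease. All mice were 7 weeks old by the sample labels, whereas the series text gives an age of 6 weeks and day 7. The series text also names a lacripep arm, which is not analysed here. Corneas of 5 mice were pooled before nuclei were isolated, and 1 library was made per group, so no value below has a replicate. No p-value is given, and all intervals are exact 95% intervals (Poisson for levels) that cover counting error only. The knockout itself could not be checked: Aire had 15 UMIs in the whole WT library, 27 in KO and 68 in KO+PBS, and between 0 and 1 in the members of each. The groups are therefore named by their labels throughout.

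The corneal stroma is a layer of regularly spaced collagen fibrils maintained by keratocytes, flat cells that secrete fibrillar collagens and the small proteoglycans keratocan, lumican and decorin. The epithelium lies in front of it, and the corneal endothelium, a single layer of ion-pumping cells that like keratocytes derives largely from the neural crest, lies behind it. Several of the 10 selecting genes make or read extracellular matrix and guidance signals, and none of them is a classical keratocyte marker.

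The selecting genes fall into 3 groups by role. The secreted and matrix-building genes are C1qtnf7, a C1q and TNF related secreted protein, Spon1, the matrix protein F-spondin, Slit3, a ligand of ROBO receptors, and Chsy3, a synthase of chondroitin sulphate chains. The signalling and surface genes are Erbb4, a receptor tyrosine kinase for neuregulins, Pde7b, a phosphodiesterase that breaks down cAMP, Csmd1, a transmembrane protein with complement-regulating domains, and Lrrc7, the postsynaptic scaffold densin. Zeb2 is a transcription factor that binds E-box sequences, and Cped1 encodes a protein with cadherin-like and esterase domains. Their gene bodies span 103 kb (C1qtnf7) to 1643 kb (Csmd1). In the GENCODE M21 annotation of GRCm38, the build called mm10, C1qtnf7 lies at chr5:43515538-43618803 on the plus strand, Erbb4 at chr1:68032186-69108059 on the minus strand and Lrrc7 at chr3:158082891-158562221 on the minus strand.

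Promoters of Lrrc7, Erbb4 and C1qtnf7 are shown because these 3 genes stood furthest above the rest of the WT library when each was left out of the selection, as given below. The sequences are from RefSeq (GRCm38.p6), 300 bases each around the annotated start, 5′ to 3′ on the gene's strand. Capitals mark the E-box CAGGTG or its reverse complement CACCTG, the form bound by ZEB factors. The Lrrc7 window is chr3:158561712-158562011, minus strand, the Erbb4 window chr1:69108010-69108309, minus strand, and the C1qtnf7 window chr5:43515319-43515618, plus strand. The Lrrc7 window lies wholly inside the GENCODE gene body given above, so its RefSeq start is not the GENCODE start. The other windows hold the GENCODE start.
Lrrc7: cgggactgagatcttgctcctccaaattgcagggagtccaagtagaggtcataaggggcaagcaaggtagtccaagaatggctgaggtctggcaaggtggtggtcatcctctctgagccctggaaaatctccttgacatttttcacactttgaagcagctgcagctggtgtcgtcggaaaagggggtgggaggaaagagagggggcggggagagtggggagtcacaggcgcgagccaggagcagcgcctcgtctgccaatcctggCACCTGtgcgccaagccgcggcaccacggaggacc
Erbb4: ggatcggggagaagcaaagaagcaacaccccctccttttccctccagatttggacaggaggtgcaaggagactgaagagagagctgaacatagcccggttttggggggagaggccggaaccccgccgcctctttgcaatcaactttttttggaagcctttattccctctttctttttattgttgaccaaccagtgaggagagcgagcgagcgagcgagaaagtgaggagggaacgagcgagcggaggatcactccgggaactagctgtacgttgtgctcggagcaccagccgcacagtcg
C1qtnf7: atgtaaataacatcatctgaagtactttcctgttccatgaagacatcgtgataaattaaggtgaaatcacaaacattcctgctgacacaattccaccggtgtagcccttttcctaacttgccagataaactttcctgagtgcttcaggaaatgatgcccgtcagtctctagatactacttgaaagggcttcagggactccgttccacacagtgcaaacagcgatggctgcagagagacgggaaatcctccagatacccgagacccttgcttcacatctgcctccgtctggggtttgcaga
Of the 10 selecting genes, 7 had a promoter in the RefSeq table, and Chsy3, Csmd1 and Spon1 are named only. The E-box, searched on both strands, was in the window of 1 of these 7 genes, Lrrc7, and in that of 22.56% of the 27025 genes in the table. GC content was 59.33% for Lrrc7, 55.33% for Erbb4 and 46.67% for C1qtnf7, beside a median of 52.67% over all promoters.

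Members held more UMIs than the rest of their library. A rule that asks for 4 detected genes favours deep barcodes, and its part in this difference was not tested. The median member had 4402 UMIs and 1886 genes in WT, 3300 UMIs and 1760 genes in KO and 2071 UMIs and 1379 genes in KO+PBS. The other barcodes had medians of 2253, 2977 and 1442 UMIs. The number of deposited barcodes, 96587 in WT, 107031 in KO and 114357 in KO+PBS, is unusually high for single libraries of nuclei, and whether each barcode holds a nucleus was not tested, so other barcodes may include droplets without one. The whole libraries held 256852883, 352627863 and 178988562 UMIs. Of all UMIs of the 10 genes, 16.0% lay in members in WT, 5.18% in KO and 7.00% in KO+PBS, so most of this RNA was outside the members in each library. Barcode sequences shared between pairs of libraries numbered 2833, 2998 and 3379, and none of them was a member in both.

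The enrichment that defined the members was steepest in WT. The 10 genes took 0.0250% of all UMIs in WT, 0.0823% in KO and 0.100% in KO+PBS, so the same multiple of 4 asked for a higher share in the KO and KO+PBS libraries. Members had a median multiple of 7.85 in WT, 4.66 in KO and 4.79 in KO+PBS, with highest values of 41.0, 13.9 and 14.6. A multiple of at least 6 was reached by 674, 136 and 184 barcodes, and one of at least 10 by 318, 5 and 12. In WT, 35.1% of members held only 4 of the 10 genes, in KO 16.7% and in KO+PBS 42.8%, and all 10 genes were found together in 4, 11 and 0 members.

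**Figure D1:**
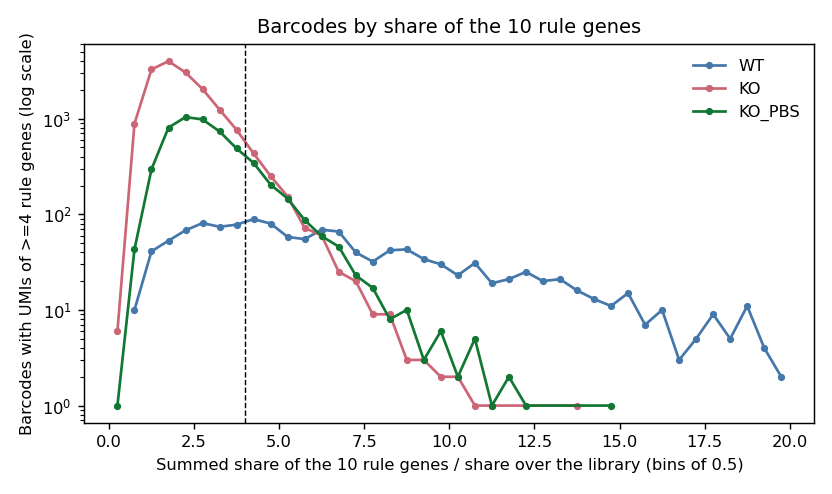
Number of barcodes with UMIs of at least 4 selecting genes (log axis) against the multiple of the library's share of those genes, in bins of 0.5 up to 20, for each library. The dashed line marks the limit of 4: in KO and KO+PBS the counts fall steeply through the limit, while WT has a long tail that falls slowly. The highest WT multiple, 41.0, lies beyond the plotted range.

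No gap separated members from the barcodes below the limit. Just inside it, at multiples of 4 to 4.5, lay 89 barcodes in WT, 433 in KO and 344 in KO+PBS. Just outside, at 3.5 to 4, lay 78, 764 and 488. The level of Kera, the keratocyte proteoglycan keratocan, was 134 CPM (counts scaled to a common total per set) just inside and 164 just outside in WT, whereas KO had 209 and 225 and KO+PBS 25.7 and 21.4. The WNT inhibitor Dkk2 had 197 and 137 CPM in WT, while KO had 288 and 280 and KO+PBS 372 and 382. Barcodes on either side of the limit thus had similar levels of these 2 genes in KO and KO+PBS. The basement membrane collagen Col4a3 had 542 CPM just inside and 525 just outside in KO+PBS, beside 163 in all other barcodes of that library. Its levels were 66.1 and 45.2 CPM in WT and 30.4 and 37.4 in KO.

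Because the rule used the levels of the 10 genes, these are given as description. Chsy3 had 530 CPM in WT members, 990 in KO members and 1233 in KO+PBS members, beside 46.1, 139 and 104 CPM in other barcodes. Cped1 had 279, 464 and 1287 CPM in members and 45.0, 117 and 195 in other barcodes. C1qtnf7 itself stood at 176, 218 and 198 CPM against 12.4, 33.1 and 22.8. CPM is not corrected for gene length, so these values compare a gene between sets of barcodes and not one gene with another in molecules per cell.

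Each selecting gene was then measured in barcodes chosen by the other 9, as a description: the 10 genes were listed together with results of these data known, so leaving 1 out does not make its level independent. Long genes in general were also higher in members (given with gene length below). In WT all 10 left-out genes were higher in the chosen barcodes than in the rest, by 2.94-fold (Zeb2) to 15.2-fold (Lrrc7). C1qtnf7 reached 143 CPM (132 to 155) against 13.3 in WT, a 10.8-fold difference, 146 against 33.8 in KO (4.32-fold) and 112 against 23.9 in KO+PBS (4.70-fold). Erbb4 reached 218 against 14.9 CPM in WT (14.7-fold), 183 against 40.2 in KO (4.55-fold) and 228 against 75.01 in KO+PBS (3.04-fold). Chsy3 was 9.06, 3.61 and 5.35 times higher in the 3 libraries. The ratios of these 3 genes were largest in WT.

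The ratios differed between the genes. In KO+PBS, Spon1 stood at 212 CPM (195 to 229) in barcodes chosen by the other 9 genes and at 198 (196 to 200) in the rest, with overlapping intervals and a ratio of 1.07. In KO it was 2.41 times higher and in WT 6.28 times. Csmd1 was 3.83 times higher in WT, 1.55 times in KO and 1.28 times in KO+PBS. Zeb2 showed ratios of 2.94, 1.65 and 1.496. Spon1, Csmd1 and Zeb2 thus had the lowest ratios in KO+PBS. Selection without Chsy3 kept 707 of the 956 members of WT, 663 of the 1045 of KO and 531 of the 965 of KO+PBS. Selection without Cped1 kept 724, 855 and 524 of them.

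**Figure D2:**
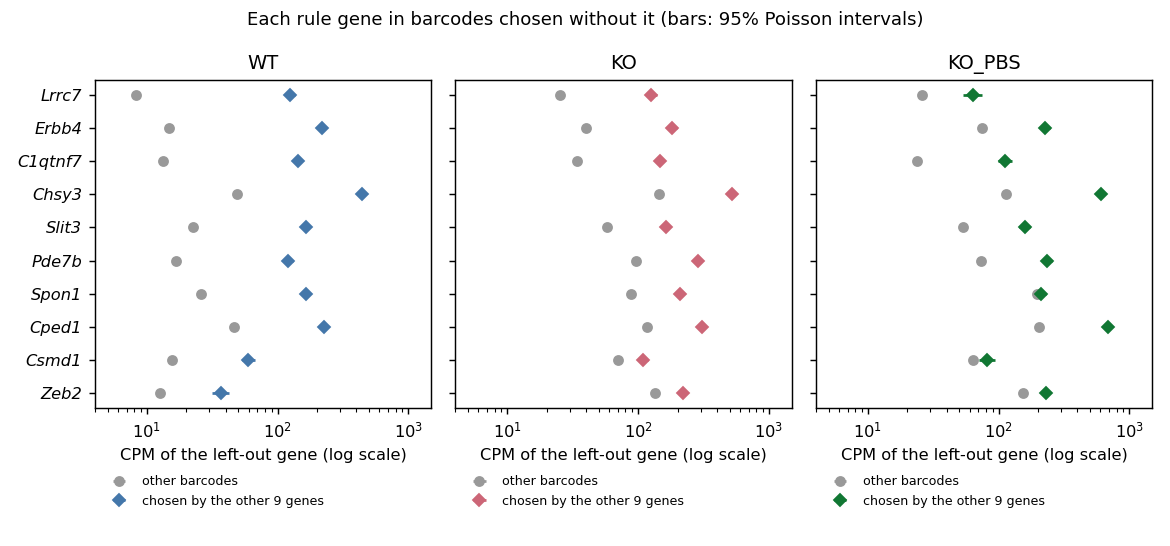
Level of each left-out selecting gene (CPM, log axis) in barcodes chosen by the other 9 genes (diamonds) and in all other barcodes (grey), in 3 panels by library, with 95% Poisson bars. The diamonds lie well above the grey points for all genes in WT, and Spon1 meets its grey point in KO+PBS at 212 against 198 CPM.

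Depth alone can raise the share of barcodes with a UMI, so barcodes were thinned to 1000 UMIs each. No WT member, 1 KO member and 31 KO+PBS members were shallower and left out, as were 219, 212 and 13788 other barcodes before 5000 of the rest were drawn per library. At this depth C1qtnf7, which the rule used, was seen in 15.9% of WT members and 1.12% of other barcodes, in 17.9% and 2.98% in KO, and in 16.6% and 1.8% in KO+PBS. Without thinning it was seen in 52.9%, 44.3% and 33.8% of members. Dkk2, which the rule did not use, was seen in 24.9% of thinned WT members against 4.98% of other barcodes, 23.8% against 11.8% in KO and 27.8% against 13.3% in KO+PBS. Dkk2 was therefore more often detected in members at equal depth in all 3 libraries. It was also high outside them: endothelium-rich barcodes that were not members, described below, had 227, 490 and 746 CPM in WT, KO and KO+PBS, beside 278, 312 and 478 in members, and keratocyte-rich barcodes of WT had 185 CPM.

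The working name of the set speaks of stromal nuclei, and its marker genes are all selecting genes, so 10 separate keratocyte genes were used to check it. In WT, 7 of the 10 were counted as higher in members than in other barcodes, meaning at least 50 UMIs over both sums, at least a 2-fold ratio and separate 95% intervals. Over all genes with enough UMIs 19.3% were higher in WT, and 0.0948% were lower. The list's median log2 ratio was 1.67 beside 0.38 over all genes. Kera had 209 CPM in WT members and 45.2 in other barcodes. Dcn, decorin, had 1157 against 404 CPM, Col1a1, an alpha chain of type I collagen, 697 against 208, and Lum, lumican, 291 against 90.5. Keratocyte genes thus stood above the rest in WT members, whereas Ogn, Aldh1a1 and Ptgds of the same list were not counted.

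In the knockout libraries no keratocyte gene was counted in either direction. In KO, where 2.49% of all genes were higher and 0.0861% lower, the list's median was 0.45 beside 0.21 over all genes. Kera had 247 against 155 CPM, Dcn 1291 against 949 and Col1a1 1257 against 924. In KO+PBS, where 4.44% of all genes were higher and 0.537% lower, the keratocyte median was 0.03 beside 0.23. Kera had 32.8 CPM in members and 33.0 in other barcodes, Dcn 760 against 842 and Col1a1 402 against 430. These keratocyte genes were thus about as high in the other barcodes of KO+PBS as in members, and they do not back the name stromal there. The set is therefore called C1qtnf7/Chsy3 barcodes, or members.

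Markers of other cell types were also counted as higher in WT members, where 19.3% of all genes were. These were 5 of 10 neuron genes, 5 of 7 skeletal muscle genes, 5 of 9 Schwann cell genes, 5 of 10 genes of other fibroblasts, 4 of 8 T cell genes, 3 of 9 mural genes, 2 of 9 vascular endothelium genes and 2 of 9 macrophage genes, the last 2 counts being near the share of all genes. Their summed levels were low: 80.3 CPM against 38.9 for neuron genes, 29.5 against 10.7 for skeletal muscle genes and 23.8 against 7.46 for T cell genes. The keratocyte genes summed to 4251 against 1722 CPM. The ratio of the sums was thus larger for skeletal muscle and T cell genes than for keratocyte genes, and smaller for neuron genes. A raised ratio in WT members was therefore not particular to keratocyte genes. Corneal epithelium genes, led by the keratin Krt12, summed to 44824.5 against 49058 CPM in WT, with 0 of 10 counted in any library. The part that RNA of other cells plays in these counts was not tested.

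In KO+PBS, corneal endothelium genes were higher in the members' sums, although only 70 of the 965 members (7.25%) met the endothelium rule described below. Of 8 such genes, 6 were counted as higher, where 4.44% of all genes were, with a list median of 1.17 beside 0.23. In WT 1 of 8 was counted, beside 19.3% of all genes, and in KO 1 of 8, beside 2.49%. Slc4a11, a membrane transporter needed by the endothelium, had 480 CPM in KO+PBS members and 153 in other barcodes, but 48.0 against 43.1 in WT and 45.6 against 44.1 in KO. Col8a2, a collagen of Descemet's membrane, on which the endothelium sits, had 697 against 309, 87.6 against 61.8 and 59.7 against 58.1 CPM. Slc4a4, a sodium bicarbonate cotransporter, was higher in all 3, at 1023 against 377 in KO+PBS, 156 against 51.9 in WT and 200 against 87.3 in KO. Further genes higher in KO+PBS members were the basement membrane collagens Col4a3 (780 against 163 CPM) and Col4a4 (581 against 146). The guidance ligand Slit2 (700 against 163), the glutamate receptor Grm8 (750 against 132) and the growth factor Fgf10 (479 against 92.8) were too. Grm8 was also higher in members of the other libraries, at 79.9 against 27.9 in WT and 78.1 against 38.9 in KO. Fgf10 had 54.7 against 23.3 in WT and 53.4 against 36.0 in KO. Col4a3 was not particular to members, with 525 CPM in KO+PBS barcodes just outside the limit.

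A small number of members held at least 4 endothelial markers at a raised share. By the same form of rule applied to the endothelium list, 70 KO+PBS members qualified (7.25%, 5.70 to 9.08%), beside 0.279% of other barcodes. In WT 10 members did (1.05%, beside 0.668% of other barcodes), and in KO 1 did (0.0957%, beside 0.127%). Without members rich in any other marker list, which removes these by construction, 1 of the 8 endothelial genes stayed counted in KO+PBS, and without barcodes above the 99th percentile of UMIs 2 of 8 did. Col4a3 then had log2 ratios of 1.64 and 1.79, down from 2.26, and Grm8 2.14 and 2.22, down from 2.51. Col4a3 and Grm8 thus stayed more than 2-fold above the rest. The first of these settings drops 114 of the 965 members, and the second leaves 890. No doublet caller was run, and whether such a barcode holds a single nucleus or more was not tested.

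**Figure D3:**
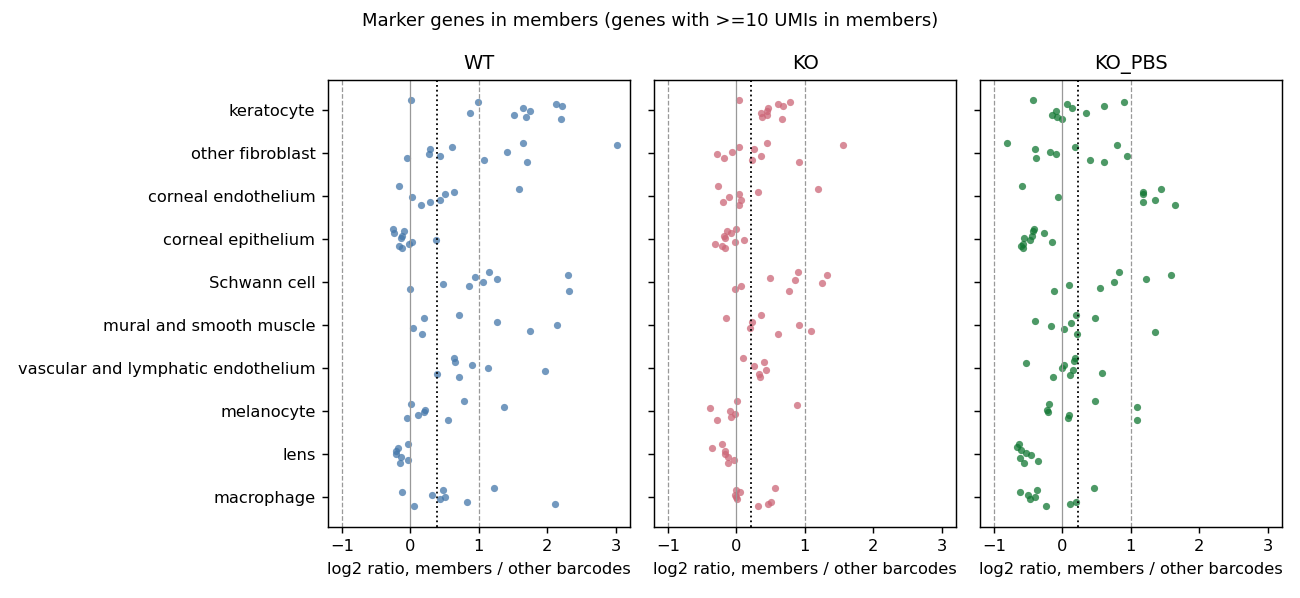
Log2 ratio of CPM, members over other barcodes, for each marker gene with at least 10 UMIs in members, in 10 marker lists and 3 panels by library; the dotted line is the median over all genes and the dashed lines mark -1 and 1. Keratocyte genes stand to the high side in WT (7 of 10 counted) and near the median in KO+PBS, where 6 of 8 corneal endothelium genes stand high.

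Several of the genes that chose the members were themselves high in endothelium-rich barcodes of KO+PBS that were not members. Chsy3 had 557 CPM there against 104 in other barcodes, Cped1 1104 against 195, Pde7b 158 against 71.1 and C1qtnf7 78.3 against 22.8. Lrrc7 had 21.8 against 25.2 CPM, Csmd1 35.9 against 60.6, Zeb2 94.98 against 152 and Spon1 133 against 196. In WT the endothelium-rich barcodes had 21.4 CPM of C1qtnf7 against 12.4, and 4.59 of Lrrc7 against 7.58. The 70 endothelium-rich barcodes with a high share of the selecting genes are members and not in this set, which lowers the levels of those genes in it.

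Keratocyte-rich barcodes, chosen by the same form of rule from the keratocyte list, overlapped the members only in part in WT. Of 1544 such barcodes, 152 were members, which is 15.9% of members beside 1.46% of other barcodes. Members are deeper, and the part of depth in this overlap was not tested. Some other lists were also more frequent in WT members: 0.732% against 0.0157% for neuron genes, 0.941% against 0.0293% for Schwann cell genes and 0.418% against 0.0157% for vascular endothelium genes. The lens list was not, at 1.36% against 1.52%, and no member met the T cell or the B and plasma cell list. Without the keratocyte-rich members the keratocyte list kept 7 of 10 genes counted with a median of 1.11, and Kera had a log2 ratio of 1.43 in place of 2.21. The members left after removing the overlap, against the keratocyte-rich barcodes that were not members, had 645 genes higher and 126 lower, 6.2% and 1.21% of those measured. The genes chosen on the keratocyte side had to be lower: Kera had 121 CPM in members and 457 in keratocyte-rich barcodes, and Col1a1 453 and 1957. Genes that neither rule used were lower too, such as Mmp3 (125 against 433 CPM) and Serpinf1 (151 against 518). On the other side stood genes not used by either rule, such as Sgcd, a sarcoglycan of the dystrophin complex (64.0 against 11.7 CPM), Nrxn3, a neurexin of synaptic adhesion (70.2 against 13.4), Dpp10, a potassium channel subunit (52.0 against 6.59), and Ror1, a WNT receptor (77.8 against 20.0). Sgcd, Nrxn3 and Ror1 span 1093, 1612 and 349 kb, and the part of gene length in this comparison was not tested.

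In KO, 6 of 203 keratocyte-rich barcodes were members (0.574% of members), and with the overlap removed from both sets members had 240 genes higher and 124 lower, 2.65% and 1.37%. Ptgds, a prostaglandin D synthase and one of the genes that chose the keratocyte-rich barcodes, had 137 CPM in members and 874 there. Cacna2d3, a calcium channel subunit that neither rule used, had 54.3 and 7.01 CPM. In KO+PBS only 14 barcodes met the keratocyte rule and 0 were members. Against them members had 156 genes higher (1.85%) and 284 lower (3.37%). Their leading gene was Ptgds, one of the 10 genes that chose them, at 28488 CPM, while Kera had 16.9 CPM, so nothing about keratocytes is read from this comparison.

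**Figure D4:**
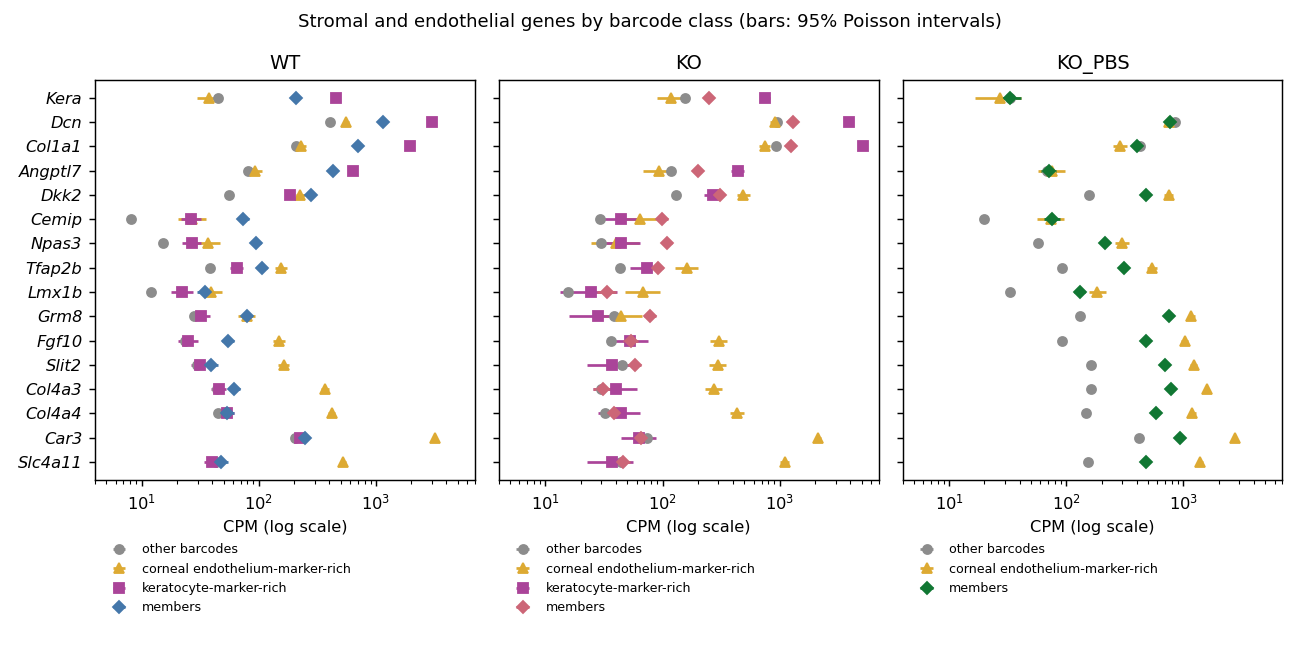
Levels (CPM, log axis) of 16 genes in members, other barcodes, endothelium-rich and keratocyte-rich barcodes of each library (no keratocyte-rich set in KO+PBS), with 95% Poisson bars. In WT the members lie between keratocyte-rich and other barcodes for Kera, at 209 against 457 and 45.2 CPM, and in KO+PBS they lie between endothelium-rich and other barcodes for Col4a3, at 780 against 1576 and 163 CPM.

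Beyond the selecting genes, 125 genes were counted as higher in members of all 3 libraries. Genes lower in members were few (0.0948%, 0.0861% and 0.537% of all genes), and no pair of libraries shared one. These 125 are genes that passed in libraries with unequal numbers of counted genes: 3469 were higher in WT, 463 in KO and 935 in KO+PBS. With ratios centred on the median gene these counts were 2359, 234 and 492, with 102, 58 and 342 genes lower in place of 17, 16 and 113. WT and KO shared 332, which is 9.57% of the WT genes and 71.7% of the KO genes. WT and KO+PBS shared 458, 13.2% and 49.0%, and KO and KO+PBS shared 131, 28.3% and 14.0%. Cemip, which binds and helps degrade hyaluronan, had 74.0 CPM in WT members against 8.09 in other barcodes, 99.8 against 29.1 in KO and 75.6 against 19.7 in KO+PBS. The transcription factor Npas3 had 94.5 against 15.4, 109 against 30.1 and 214 against 57.7. The ETS factor Erg had 65.2 against 9.4, 82.7 against 28.0 and 95.4 against 25.2. Pdzrn3, a ubiquitin ligase, had 71.5 against 14.4, 131 against 45.2 and 296 against 83.1. These genes were not confined to members: endothelium-rich barcodes that were not members had 74.4 CPM of Cemip, 299 of Npas3, 116 of Erg and 320 of Pdzrn3 in KO+PBS. In WT those barcodes had 27.0, 36.7, 17.3 and 35.7 CPM and keratocyte-rich barcodes 26.4, 26.9, 18.6 and 23.9, all below the members and above the other barcodes.

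Transcription factors of connective tissue and neural crest were among the 125. Tfap2b, a neural crest factor, had 107 against 38.2 CPM in WT, 90.9 against 43.1 in KO and 308 against 92.0 in KO+PBS. Lmx1b, which is needed for development of the anterior eye, had 35.0 against 12.1, 33.4 against 15.7 and 130 against 33.2. Prrx1, a mesenchymal homeobox factor, had 68.3 against 20.9, 133 against 66.4 and 220 against 73.5, and Tcf4 and Zeb1, which like Zeb2 binds E-boxes, were also higher in all 3. In KO all of these factors passed the 2-fold limit only narrowly. Their log2 ratios there were 1.08 (Tfap2b), 1.09 (Lmx1b), 1.002 (Prrx1), 1.03 (Tcf4) and 1.12 (Zeb1), where the median over all genes was 0.21. Of 25 mesenchymal transcription factors 12 were higher in WT, 5 in KO and 9 in KO+PBS, beside 19.3%, 2.49% and 4.44% of all genes. Tfap2b and Lmx1b were also high elsewhere: endothelium-rich barcodes that were not members had 154, 161 and 540 CPM of Tfap2b in the 3 libraries, and 38.8, 68.6 and 184 CPM of Lmx1b.

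Of 26 guidance genes related to Slit3, 14 were higher in WT, 6 in KO and 9 in KO+PBS, beside 19.3%, 2.49% and 4.44% of all genes, with medians of 1.23, 0.72 and 0.77. Long genes in general were higher more often, as given below, and the part of gene length in these counts was not tested. Sema3a, a repelling semaphorin, had 58.5 against 15.3 CPM in WT, 84.1 against 35.2 in KO and 103 against 36.3 in KO+PBS. Its signalling receptor partner Plxna4 had 32.7 against 4.90, 21.2 against 9.59 and 62.6 against 27.3. The receptors of Slit3 were less even: Robo2 had 28.4 against 7.44 in WT and 31.2 against 13.2 in KO, both counted, and 108 against 64.6 in KO+PBS, not counted. Slit2 was counted only in KO+PBS, and the difference between libraries in this ratio was not tested.

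Of 31 genes that build or edit chondroitin, dermatan and heparan sulphate, 12 were higher in WT, 4 in KO and 7 in KO+PBS, Chsy3 not included, beside 19.3%, 2.49% and 4.44% of all genes. Gene length was not taken into account in these counts either. Hs3st5, a heparan sulphate sulphotransferase, had 43.1 against 6.34 CPM in WT, 43.9 against 13.04 in KO and 165 against 35.2 in KO+PBS. Sulf1, which removes sulphate from heparan chains, had 48.4 against 12.4, 85.2 against 37.2 and 143 against 46.8. Ust, a sulphotransferase that acts on uronic acid, had 24.2 against 7.27, 45.6 against 22.7 and 74.8 against 35.7. These 3 were counted in all libraries.

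Over all genes 19.3% were higher in WT, 2.49% in KO and 4.44% in KO+PBS. Among relatives of Pde7b, 16 of 23 phosphodiesterase and adenylyl cyclase genes were higher in WT, 3 in KO and 4 in KO+PBS. Pde3a, a phosphodiesterase of cAMP, had 30.1 against 4.23 CPM in WT, 41.0 against 13.02 in KO and 65.1 against 27.9 in KO+PBS. Relatives of Spon1 with thrombospondin repeats were higher in 9 of 15, 2 of 15 and 4 of 16. Of 14 ErbB receptors and ligands other than Erbb4, 3 were higher in WT and none in KO or KO+PBS, which is near the shares of all genes. Egfr, the receptor for epidermal growth factor, had 170 against 142, 260 against 228 and 106 against 93.6 CPM. C1q and TNF related genes other than C1qtnf7 were higher in 2 of 11, 0 of 11 and 1 of 14.

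Read against the same shares of all genes (19.3%, 2.49% and 4.44%), collagens and proteoglycans of the stroma were higher in 21 of 32 in WT, in 1 of 32 in KO (Col24a1) and in 4 of 32 in KO+PBS (Col4a1, Col4a2, Col8a1 and Col12a1). Col12a1, which sits on collagen fibrils, had 406 against 122 CPM in WT, 464 against 282 in KO and 469 against 212 in KO+PBS. Genes of BMP, TGF-beta and WNT signalling were higher in 15 of 32, 2 of 32 and 4 of 32. Dkk2, a WNT inhibitor of the anterior eye, was counted in all 3, with 278 against 55.7, 312 against 131 and 478 against 155 CPM. Synaptic adhesion and scaffold genes, listed here with Lrrc7, were higher in 17 of 23 in WT and in 2 of 23 in each knockout library. Long genes were higher more often in general: of all genes over 300 kb, 66.4% were higher in WT, 13.2% in KO and 22.4% in KO+PBS. Nrxn3 of this list spans 1612 kb. Genes of fibroblast activation were higher in 4, 0 and 2 of 22, near those shares.

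The ratio of members to other barcodes moved with the length of the gene body. In WT the median log2 ratio was 0.15 for genes under 10 kb, of which 5.96% were higher, and 1.51 for genes over 300 kb, of which 66.4% were higher. In KO these medians were 0.10 and 0.47, with 1.23% and 13.2% higher, and in KO+PBS 0.03 and 0.57, with 2.10% and 22.4% higher. The 10 selecting genes and Cemip, Npas3, Erg and Pdzrn3 span over 100 kb. The 10 keratocyte genes span 3.34 kb (Ptgds) to 153 kb (Col5a1). The part of gene length in each difference was not tested.

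KO members stood above WT members in interferon and acute-phase genes, and so did the other barcodes. Of the genes measured in both, 1643 were higher in KO members (14.6%) and 556 lower (4.93%), and among other barcodes 4280 (21.3%) and 1529 (7.61%). The median log2 ratio over all genes was 0.24 in members and 0.27 in other barcodes, and with ratios centred on the members' median gene 1077 genes were higher and 924 lower. All 33 genes of the interferon response and antigen presentation were higher in members, with a median log2 ratio of 3.73, and 3.75 in other barcodes. Cxcl9, a chemokine induced by interferon gamma, had 2.03, 235 and 244 CPM in members of WT, KO and KO+PBS, and 0.327, 203 and 291 CPM in other barcodes, so its KO to WT ratio was smaller in members (log2 6.85) than in other barcodes (9.28). The ratio in members was within 2-fold of that in other barcodes for 28 of the 33 genes and at least 2-fold smaller for the other 5, which were Cxcl9, Cxcl10, Gbp5, Nlrc5 and Ciita (by ratio and separate intervals together, 5.49% of all genes fell short in this way and 0.0798% exceeded it). Within a library, 4 of the 33 genes were higher in members in WT, 0 in KO and 0 in KO+PBS, beside 19.3%, 2.49% and 4.44% of all genes.

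Of 22 measured acute-phase and inflammation genes, 21 were higher in KO members than in those of WT, where 14.6% of all genes were. Their median ratio was 3.60 in members, beside 3.89 in other barcodes. The 2 ratios were within 2-fold of each other for 20 of the 22, and that of members was the smaller for Ccl19 and Slpi. Saa3, an acute-phase protein, had 0.813 CPM in WT members, 1530 in KO and 42.4 in KO+PBS, and 0.649, 1225 and 58.5 CPM in other barcodes. Slpi, an epithelial protease inhibitor, had 5.69, 2871 and 12.2 CPM in members. Between KO+PBS and KO members, where 20.1% of all genes were higher and 5.86% lower, 11 of 21 such genes were lower, with a median of -1.21, and 0 higher, and the other barcodes had a median of -0.67. Between these libraries 1 of the 33 interferon genes was higher and 1 lower, the median being 0.02. Markers of macrophages (8 of 9) and T cells (7 of 7) were also higher in KO than in WT members, where 14.6% of all genes were.

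Keratocyte genes differed less between the KO and WT members than between the other barcodes. This and the other comparisons of the 2 differences restate the ratios of members to other barcodes within each library, given above, and are no separate result. In members 1 of 10 was higher and 1 lower, beside 14.6% and 4.93% of all genes, with a median of 0.22. In other barcodes the median was 1.57 with 7 higher, beside 21.3% of all genes. Stromal collagens and proteoglycans had medians of 0.57 in members and 1.65 in other barcodes. Across all genes the difference in members exceeded that in other barcodes by at least 2-fold for 9 genes (0.0798%) and fell short of it for 619 (5.49%), the measure being chosen after the data were seen. Among the latter was Slc26a7, an anion exchanger, with 79.5 against 82.7 CPM in members and 34.0 against 10.2 in other barcodes. Of 22 measured synaptic adhesion genes, 15 were lower in KO members (4.93% of all genes were) and 0 higher, with a median of -1.67, against -0.18 in other barcodes. Nrxn3 had 61.4 CPM in WT members, 10.9 in KO and 176 in KO+PBS, and its other barcodes 14.8, 10.5 and 166.

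Members of KO+PBS against those of KO had 2257 genes higher (20.1%) and 659 lower (5.86%), and the other barcodes 8890 (39.8%) and 1045 (4.67%). The all-gene medians were 0.30 and 0.63, and centring gave 1559 genes higher and 1159 lower in members. Genes of other eye tissues were higher in both. All 7 measured lens genes were higher in members, with a median of 4.81, and 5.31 in other barcodes, and all 8 photoreceptor genes, with 4.59 and 5.34. Summed lens genes were 5754 CPM in KO+PBS members and 243 in KO members, but 8350 in the other barcodes of KO+PBS. Of 8 melanocyte genes 7 were higher, at a median of 5.13 in members and 4.75 in other barcodes. These markers moved in the whole library, and the part of such RNA in the differences of members was not tested.

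Corneal endothelium genes differed more in members than in the other barcodes of this comparison, with 5 of 8 higher (20.1% of all genes were) and medians of 2.69 and 1.78. The 70 endothelium-rich members of KO+PBS are part of these sums. Without members rich in another marker list, 1836 genes were higher and 565 lower between the members of these libraries. In all, 169 genes (1.5%) went above the difference of the other barcodes by at least 2-fold and 89 (0.792%) below it. Col4a3 had 780 CPM in KO+PBS members and 30.9 in KO members, and 163 and 30.1 in other barcodes. Pdgfd, a PDGF ligand, had 147 and 9.49 CPM in members, Tenm2, a teneurin of cell adhesion, 738 and 72.4, and Kynu, an enzyme of tryptophan breakdown, 119 and 13.6. Below it were Dpt, the matrix protein dermatopontin, with 24.4 and 57.0 CPM, and Smoc2, a matricellular protein, with 12.6 and 60.8. Keratocyte genes were lower in 6 of 10 members' sums and higher in 1, beside 5.86% and 20.1% of all genes. Their median was -1.21 in members and -0.89 in other barcodes.

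Set against WT, KO+PBS members had 4349 genes higher (37.8%) and 769 lower (6.68%), and other barcodes 12583 (57.1%) and 892 (4.05%). The all-gene medians were 0.68 and 1.28, and centring gave 1917 genes higher and 2194 lower in members. This comparison shares both its libraries with the others. Members exceeded the difference of other barcodes for 74 genes (0.643%) and stayed below it for 824 (7.16%). Angptl7, a secreted protein of keratocytes and the outflow tissue, had 426 CPM in WT members, 200 in KO and 70.6 in KO+PBS, and 81.5, 119 and 68.9 in other barcodes. The difference between members and other barcodes in Angptl7 was thus largest in WT and smallest in KO+PBS, as it was for Kera. With 1 library per group, group and library cannot be told apart.

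**Figure D5:**
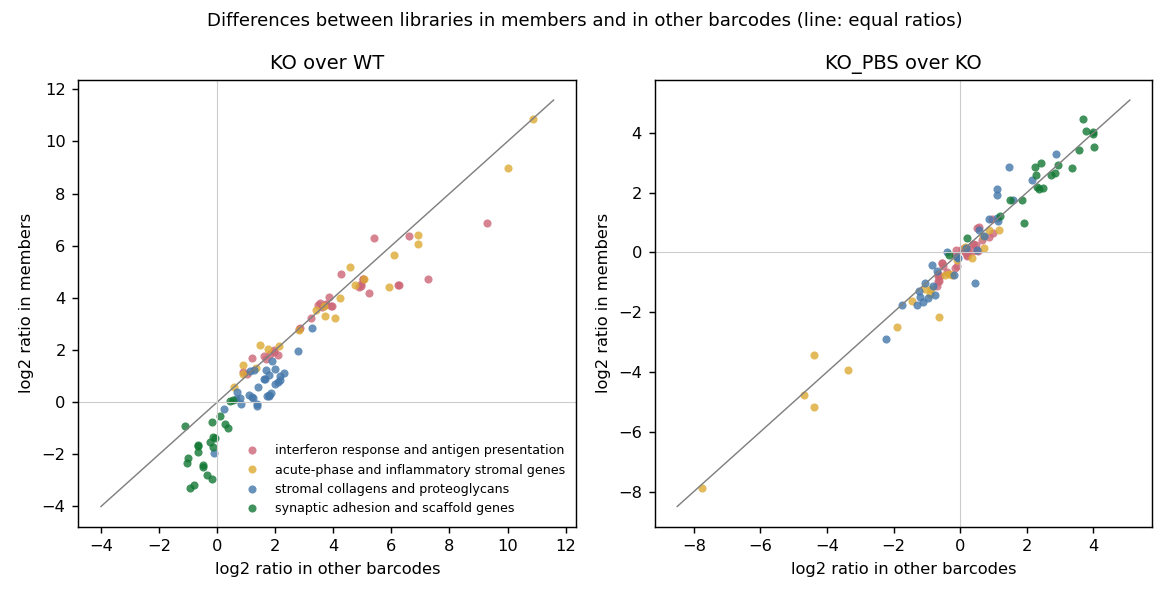
Log2 ratios of KO to WT and of KO+PBS to KO in members (vertical) against the same ratio in other barcodes (horizontal), for genes with at least 50 UMIs of 4 lists: interferon, acute-phase, collagens and proteoglycans, and synaptic adhesion without Csmd1 and Lrrc7. For KO against WT, 28 of 33 interferon genes lie within a 2-fold distance of the line of equal ratios and 5 lie further below it, Cxcl9 among them, while synaptic adhesion genes have medians of -1.67 in members and -0.18 in other barcodes.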

How the data were processed

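Nuclei of snap-frozen whole corneas (5 mice pooled per library, 1 library per group) were profiled with 10x 3′ chemistry. The authors' deposited matrices hold UMI counts per gene and barcode, made with Cell Ranger 7.0.1 on mm10 per the submitters' processing notes; the barcode filter and the counting of intronic reads are not given in the sources used here. Only the counts were used, with the barcode and gene lists in their order.

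Each set's counts were summed and scaled to CPM over gene IDs common to the 3 lists, with python 3.11.15, numpy 2.4.6, scipy 1.17.1 and pandas 2.3.3. The deposited gene lists differed: WT and KO each held 32285 IDs and KO+PBS 31053, of which 30406 were common. The part of this difference in comparisons with KO+PBS was not tested. A gene counted as higher or lower had at least 50 UMIs over both sums, a ratio of at least 2 (counts under 3 set to 3) and separate exact 95% Poisson intervals. With 1 library per group no test was made. The procedure was tested on simulated data. Medians cover all genes with at least 50 UMIs over both sums. They were computed so first, then restricted to genes with at least 10 UMIs expected in each sum once the floor of 3 was seen to raise them, and then returned to the first form, with the restricted form kept as an alternative.

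The members and gene lists were chosen with earlier results of these data known. Named genes were the 15 with the largest mean log2 ratio among genes counted in at least 2 libraries with at least 50 CPM, none qualifying as lower; for each comparison of libraries up to 10 each way, without mitochondrial, ribosomal, immunoglobulin and predicted genes; the 10 selecting genes; and 2 to 6 genes per list. Genes discussed beyond this rule (Slc26a7, Tenm2, Kynu, Dpt, Smoc2, Angptl7, Col4a3, Col4a4, Grm8, Fgf10, Dpp10 and some of the 125 shared genes) were chosen after their values were seen, as were the excess over other barcodes and the sets side by side. Alternatives covered the selection limits, mixed and high-UMI barcodes, the reference barcodes, scaling, the UMI minimum and the fold.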

Additional observations from a re-analysis of the deposited data

How the results depend on the processing

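No paired analysis was possible because each group has 1 library; for the same reason no replicate could be left out. Of 153 counts and shares under alternatives, 100 stayed within 1.5 times (shares: within the interval) and 53 moved. A single count or share cannot reverse, but the balance of higher and lower genes can. In KO+PBS against WT members, centring turned 4349 genes higher and 769 lower into 1917 higher and 2194 lower. Of 1200 values of 105 named genes 1180 stayed, 20 moved and 0 reversed. Many of these genes were named for large ratios, which makes a reversal unlikely. The middle UMI range, the set without keratocyte-rich members and the restricted medians were chosen after seeing the data. The cause of the moves was not tested. Members as a share of kept barcodes were, with a minimum of 1000 genes, 1.73% in WT and 1.58% in KO+PBS; with a multiple of 6, 0.698, 0.127 and 0.164% in WT, KO and KO+PBS; with 5 selecting genes, 0.642, 0.814 and 0.493%; without members rich in another list, 0.909% in WT and 0.761% in KO+PBS; without the highest 1% of UMIs, 0.921 and 0.804%.

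Genes higher in WT members (3469) were 2259 against barcodes of the members' middle UMI range, 5236 with no UMI minimum and 1694 against the 25% of barcodes with fewest UMIs; genes lower (17) were 10 with a multiple of 6, 9 against the middle range, 102 centred on the median gene and 52 at a fold of 1.5. In KO (463 and 16), centring gave 234 and 58 and a fold of 1.5 gave 1135 and 48; a multiple of 6 gave 54 lower and 5 selecting genes 25. In KO+PBS (935 and 113), leaving out members rich in another list gave 617 and 62, leaving out the highest UMIs 600 and 66, centring 492 and 342, a fold of 1.5 2679 and 461, and the 25% of barcodes with fewest UMIs 2290 higher.

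For KO against WT members (1643 and 556), a multiple of 6 gave 940 and 324, centring 1077 and 924, a minimum of 10 UMIs or none 1211 lower, and a fold of 1.5 3026 and 1098. For KO+PBS against KO (2257 and 659), a multiple of 6 gave 563 and 291, centring 1159 lower, a minimum of 10 UMIs 3400 and none 3520 higher, and a fold of 1.5 3419 and 1177. For KO+PBS against WT (4349 and 769), a multiple of 6 gave 2376 higher, centring 1917 and 2194, and a fold of 1.5 1350 lower. All-gene medians of members against other barcodes were 0.38, 0.21 and 0.23 in WT, KO and KO+PBS, and 0.21, 0.11 and 0.10 over genes with at least 10 expected UMIs in each sum, where the WT medians of the mural, neuron and other fibroblast lists were 0.20, 0.69 and 0.61 in place of 0.67, 1.39 and 0.85. Depth limits genes with few UMIs in the members.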

Other observations

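Members also shared single genes of the Schwann cell and mural lists. Cdh19 was the only Schwann cell gene and Pdgfrb the only mural gene counted in all 3 libraries, so no cell type is read from them. The genes given here were chosen after their values were seen. Cdh19, a cadherin of the Schwann cell lineage, had 8.13 CPM in WT members against 1.65 in other barcodes, 6.78 against 2.71 in KO and 24.4 against 8.09 in KO+PBS, and was counted in all 3. Pdgfrb, a receptor for PDGF, had 19.9 against 5.94, 32.8 against 15.4 and 39.5 against 15.4 CPM. The stretch-gated channel Piezo2 had 23.0 against 6.395, 27.9 against 13.8 and 63.9 against 27.5. The laminin chain Lama2 had 57.7 against 12.97, 72.7 against 31.0 and 150 against 64.2.

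Several genes named by the rule as lower in KO+PBS members were also low in the other barcodes of that library. Rnasek, a protein that associates with the proton pump, had 102 CPM in WT members and 0 UMIs in KO+PBS members, and 113 and 0.471 CPM in other barcodes; its gene overlaps a gene listed in only some of the deposited gene lists, so its value is uncertain. Tomm6 (187 CPM in WT members, 6.30 in KO+PBS) and Nme2 (564 and 26.0) overlap such genes too. Atp6v0c, a proton pump subunit, had 230 CPM in WT members, 243 in KO and 2.52 in KO+PBS, and 229, 262 and 2.12 in other barcodes. No such overlap was found for Atp6v0c on its strand. The gene list of KO+PBS differs from that of WT and KO, and its part in this value was not tested.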
